A study of Mus musculus with 3 samples.

Results

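The genes described here encode 10 proteins that modify, fold, trim or crosslink collagen: the lysyl oxidases Lox, Loxl1, Loxl2 and Loxl3, the lysyl hydroxylases Plod1, Plod2 and Plod3, the collagen chaperone Serpinh1, the procollagen C-proteinase Bmp1 and its enhancer Pcolce. They were taken by symbol from a table of 27179 genes, and all 10 were found. All 10 also passed the minimum used for counts over genes, a mean level of at least 50 over the libraries, as did 11067 genes in all.

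The table holds messenger RNA levels of mouse bone marrow stromal cells, labelled wild type and grown at 3% oxygen, after 3 days with extracellular vesicles (membrane particles released by cells) from mouse bone marrow plasma. For the group Ocn-EV, donor mice carried the CAGS-Snorkel transgene together with Ocn-Cre, where the osteocalcin promoter expresses Cre in mature osteoblasts. For Prx1-EV, donors carried CAGS-Snorkel together with Prx1-Cre, expressed in mesenchyme of the limb and the cells derived from it. The control, All-EV, had wild-type donors. Mice were on the C57BL/6N background and 6 months old, and plasma of 5 mice (2 males and 3 females) was pooled for each preparation. An HA antibody on beads was used to isolate vesicles in every group, and the sources do not explain how it bound those of mice without the transgene. Each group is 1 pool of plasma, 1 treated culture and 1 library, so no difference has a replicate check and no test between conditions is possible. Both comparisons with All-EV share the All-EV library.

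Collagen chains are made as procollagen in the endoplasmic reticulum, where prolines and lysines are hydroxylated and the triple helix forms with the help of chaperones. After secretion the propeptides are cut off and the molecules assemble into fibrils. Lysyl oxidases then oxidise lysine and hydroxylysine side chains, which react into the crosslinks that give bone, tendon and skin their strength. In bone marrow, stromal cells and osteoblasts are known as the main producers of this matrix.

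The libraries held 14233978 to 17269204 reads assigned to genes. The label was checked against 12 stromal, 20 macrophage and 7 endothelial markers. Of the stromal markers 5 lay below a level of 50 in All-EV and 4 in each of the other libraries; Lum was at 0 reads in all 3, and Dcn had 23, 3 and 3 reads. Here and below, 3 values stand in the order All-EV, Ocn-EV, Prx1-EV, and a pair of ratios to All-EV in the order Ocn-EV, Prx1-EV. The stromal list took 0.00979%, 0.0230% and 0.0171% of all reads. The macrophage list, with no gene at 0 and 1 below a level of 50 in each library, took 1.90%, 1.44% and 1.27%. The endothelial list, also with no gene at 0 but with 3, 2 and 3 below 50, took 0.0107%, 0.0125% and 0.0143%. In every library the macrophage list thus took a far larger share than the stromal list. The stromal label therefore does not describe all transcripts in these cultures, though the lists differ in length and in the levels of their genes. In cultures of several cell types, more cells of a type and more RNA per cell cannot be told apart.

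Levels below are the deposited normalised counts, ratios are plain ratios of those levels, and ranges in brackets are 95% exact conditional binomial intervals from the reads, for counting error alone, since reads carry no molecular identifiers and are not independent molecules. A gene called higher or lower is so in 1 library beside another. Every member was higher in Ocn-EV and in Prx1-EV than in All-EV, with an interval above 1 in each case. Serpinh1 and Pcolce stood 2.58-fold to 3.85-fold above All-EV, the lysyl oxidases 1.54-fold to 2.98-fold, Bmp1 2.11-fold and 1.30-fold, and the lysyl hydroxylases 1.21-fold to 1.47-fold. By a threshold of 1.5-fold, 7 of 10 members were higher in Ocn-EV and 0 lower, where 13.8% of all genes tested were higher and 13.7% lower. In Prx1-EV 6 of 10 were higher and 0 lower, where 12.8% of all genes were higher and 12.8% lower. These shares of all genes are the background for every list counted below at 1.5-fold with the deposited scaling. Together the members took 0.0787% (0.0774 to 0.0802), 0.211% (0.209 to 0.214) and 0.175% (0.173 to 0.177) of all reads, with Clopper-Pearson intervals. The members' median ratio was 2.10 in Ocn-EV and 1.59 in Prx1-EV, beside 0.989 and 1.00 for all genes tested. The members were chosen with earlier results of these data known, so these contrasts with all genes are no test of the list. Loxl3 in Prx1-EV, at 1.54, lay just inside the threshold, and Plod3 in Ocn-EV, at 1.47, just outside it.

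The number past 1.5-fold depended on how the libraries were scaled. With libraries set to equal totals, which moved the median log2 ratio of all genes tested to 0.24 (Ocn-EV) and 0.23 (Prx1-EV), 9 and 8 of 10 members passed, beside 24.8% and 23.1% of all genes. Genes past 1.5-fold were then mostly higher ones, 78.7% in Ocn-EV and 77.8% in Prx1-EV, beside 50.3% and 50.0% with the deposited scaling. With a trend on transcript length and GC content removed, 7 and 4 passed, beside 11.4% and 11.1% of all genes. The lowest ratio of a member was then 1.06, for Bmp1 in Prx1-EV. No member crossed 1 under either step in the comparisons with All-EV.

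**Figure D1:**
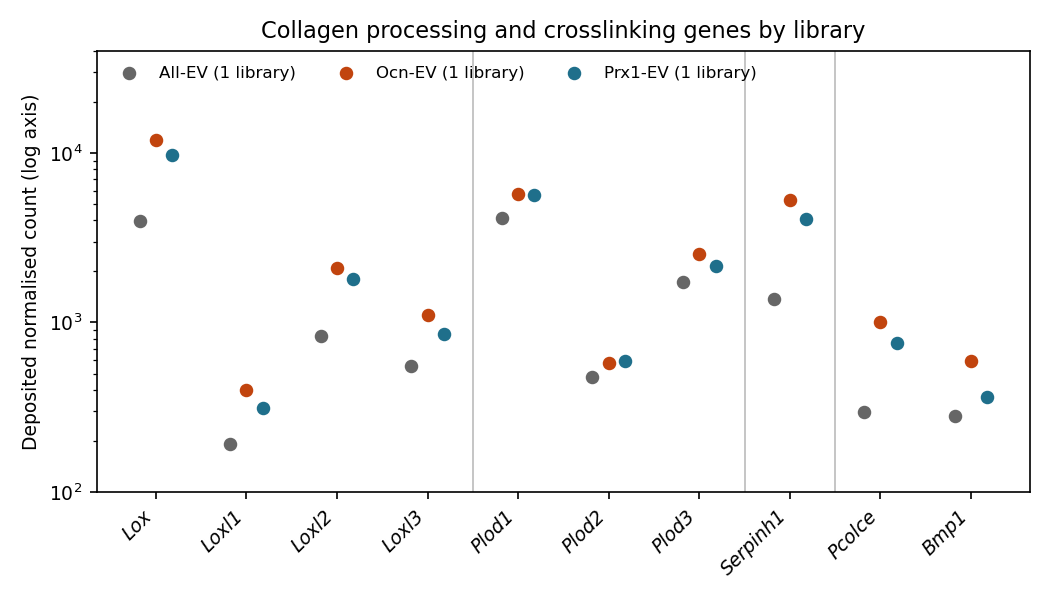
Deposited normalised count (log axis) of the 10 members in each of the 3 libraries, 1 point per library, with vertical lines between the roles. All-EV has the lowest point for every member, and the 3 points of Plod1 and Plod2 lie closest together.

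Serpinh1 (gene identifier 12406, also called Hsp47), the chaperone that binds procollagen in the endoplasmic reticulum, lies on chromosome 7 from 99345375 to 99353239 in build GRCm38.p6, the same build as the mm10 of the submitters' processing notes. Plod1 (identifier 18822), the lysyl hydroxylase of the collagen helix, lies on chromosome 4 from 147909753 to 147936776. They are the member with the largest ratio to All-EV and a member of the role with the smallest, and their upstream sequences are set side by side here. The 250 bases before the start of each gene come from RefSeq promoter windows of GRCm38.p6, both on the minus strand, chr7:99353240-99353489 for Serpinh1 and chr4:147936777-147937026 for Plod1. Capitals mark GGGCGG (the GC box) and ACGTG (a form of the core of the hypoxia response element), searched on both strands. The other form of that core, GCGTG, was not searched and is not marked.
Serpinh1: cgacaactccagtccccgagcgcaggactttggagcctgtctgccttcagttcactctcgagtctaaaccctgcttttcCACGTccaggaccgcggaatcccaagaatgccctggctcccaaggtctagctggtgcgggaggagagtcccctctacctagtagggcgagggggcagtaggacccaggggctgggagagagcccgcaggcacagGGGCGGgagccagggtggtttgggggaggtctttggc
Plod1: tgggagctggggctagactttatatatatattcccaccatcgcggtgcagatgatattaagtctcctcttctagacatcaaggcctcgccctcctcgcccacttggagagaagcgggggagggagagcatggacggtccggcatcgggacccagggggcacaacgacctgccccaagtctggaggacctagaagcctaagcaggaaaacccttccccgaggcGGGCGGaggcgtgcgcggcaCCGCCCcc
The Serpinh1 window holds 1 GC box, whose first base is 37 bases before the start, and 1 ACGTG, at 171 bases. The Plod1 window holds 2 GC boxes, at 28 and 8 bases, and no ACGTG, but the unsearched form GCGTG can be read in it. GC content was 63.6% for Serpinh1 and 61.6% for Plod1, beside a median of 52.4% over 32851 windows of 27025 genes. A GC box was found in 32.7% and ACGTG in 16.6% of all windows of this length. Windows were present for 4 members, with Plod3 and Pcolce, and of these 3 held a GC box and 2 held ACGTG (Serpinh1 and Plod3). A TATAAA box was in 1 of the 4 (Plod1; 12.4% of all windows), a CCAAT box in 1 (Plod3; 33.8%) and the heat shock element (GAA, TTC and GAA, with 2 bases of any kind between them) in 0 (0.466%), each searched on both strands. These matches describe letters in the window and say nothing of binding.

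Serpinh1 had levels of 1369, 5274 and 4076. It was high in both libraries of Cre-derived vesicles, 3.85-fold (3.62 to 4.10) and 2.98-fold (2.79 to 3.17) above All-EV. Its ratio of Ocn-EV to Prx1-EV was 1.29 (1.24 to 1.35). Serpinh1 overlapped no other annotated gene, so its reads are not shared with a neighbour.

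Pcolce (identifier 18542, chromosome 5, 137605105 to 137611522), the glycoprotein that speeds removal of the C-propeptide, had levels of 295, 1006 and 761. It was 3.41-fold (2.97 to 3.92) and 2.58-fold (2.24 to 2.97) higher than in All-EV. Bmp1 (identifier 12153, chromosome 14, 70474555 to 70520716), the proteinase that Pcolce assists and that also cuts the precursor of Lox, had the lowest level per length of the members. Its levels were 279.5, 589 and 362, with All-EV and Prx1-EV close together and Ocn-EV apart. The ratios to All-EV were 2.11 (1.81 to 2.46) and 1.30 (1.10 to 1.52). For each read of Bmp1 there were 1.06 (0.885 to 1.26), 1.71 (1.54 to 1.90) and 2.10 (1.87 to 2.37) reads of Pcolce. The proportion of enhancer to proteinase was thus lowest in All-EV and highest in Prx1-EV, with a ratio of Ocn-EV to Prx1-EV of 0.813 (0.695 to 0.950).

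Among the lysyl oxidases, Lox itself (identifier 16948, chromosome 18, 52516060 to 52529867), the copper enzyme that starts crosslinking of collagen and elastin, was the most abundant in every library. Its levels were 3989, 11868 and 9709. All-EV was the low library, and the ratios to it were 2.98 (2.86 to 3.09) and 2.43 (2.34 to 2.53). Loxl2 (identifier 94352, chromosome 14, 69608692 to 69695834), which also crosslinks basement membrane collagen IV, had levels of 835, 2093 and 1794. It was 2.51-fold (2.30 to 2.73) and 2.15-fold (1.97 to 2.34) higher than in All-EV. Lox differed more from All-EV than Loxl2 did. The reads of Lox per read of Loxl2 were 4.78 (4.41 to 5.18), 5.67 (5.41 to 5.95) and 5.41 (5.16 to 5.67). Relative to All-EV this proportion was 1.19 (1.08 to 1.30) in Ocn-EV, and the value for Prx1-EV was 1.13 (1.03 to 1.24).

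Loxl1 (identifier 16949, chromosome 9, 58287723 to 58313212), known for elastic fibre upkeep, had levels of 191, 399 and 315. The ratios to All-EV were 2.08 (1.74 to 2.51) and 1.65 (1.37 to 1.99). Loxl3 (identifier 16950, chromosome 6, 83034205 to 83052566) had levels of 553, 1102 and 852, with ratios of 1.99 (1.79 to 2.22) and 1.54 (1.38 to 1.72). The order of the 3 libraries, Ocn-EV above Prx1-EV above All-EV, was the same for the 4 lysyl oxidases. The gene bodies of Loxl3 and Htra2, introns included, share 1301 bases. Htra2, a mitochondrial protease gene, had levels of 544, 813 and 791. Overlap of exons was not computed, and whether strand was used to assign reads is not known here. Part of the Loxl3 reads may thus be uncertain. The remaining lysyl oxidase, Loxl4, was near the expression minimum at 65.6, 69.4 and 96.0. Its ratios to All-EV were 1.06 (0.733 to 1.53), within counting error, and 1.46 (1.05 to 2.05).

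In Ocn-EV the 3 lysyl hydroxylases were the members closest to the control. In Prx1-EV the closest members were these and Bmp1. Plod1 had levels of 4148, 5689.7 and 5681, with ratios of 1.37 (1.32 to 1.43) and 1.37 (1.32 to 1.43). Plod2 (identifier 26432, chromosome 9, 92539636 to 92608428), which hydroxylates the telopeptide lysines that set the type of crosslink, had levels of 476, 578 and 596, with ratios of 1.21 (1.07 to 1.38) and 1.25 (1.11 to 1.42). The table gives 1 value per gene, so the splice forms of Plod2 are not separated. Plod3 (identifier 26433, chromosome 5, 136987019 to 136996646), which also transfers sugars onto hydroxylysine, had levels of 1728, 2535 and 2148, with ratios of 1.47 (1.38 to 1.56) and 1.24 (1.17 to 1.33). The gene body of Plod3 shares 941 bases with that of Znhit1, whose levels were 934, 579 and 602. The Plod3 reads may thus be partly uncertain too. Loxl2, Plod2 and Bmp1 each overlap an annotated long noncoding gene. Those at Loxl2 and Bmp1 were not among the genes with a level, and the one in Plod2, B430319G15Rik, had levels of 1.13, 8.28 and 5.23. Plod2 and Plod1 stood at 115 (104 to 127), 102 (92.9 to 111) and 105 (96.8 to 114) Plod2 reads per 1000 Plod1 reads. Relative to All-EV this proportion was 0.884 (0.774 to 1.01) and 0.913 (0.803 to 1.04), within counting error. Against Serpinh1 the proportion was not the same: there were 348 (311 to 389), 109.5 (100.2 to 120) and 146 (135 to 158) Plod2 reads per 1000 Serpinh1 reads.

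**Figure D2:**
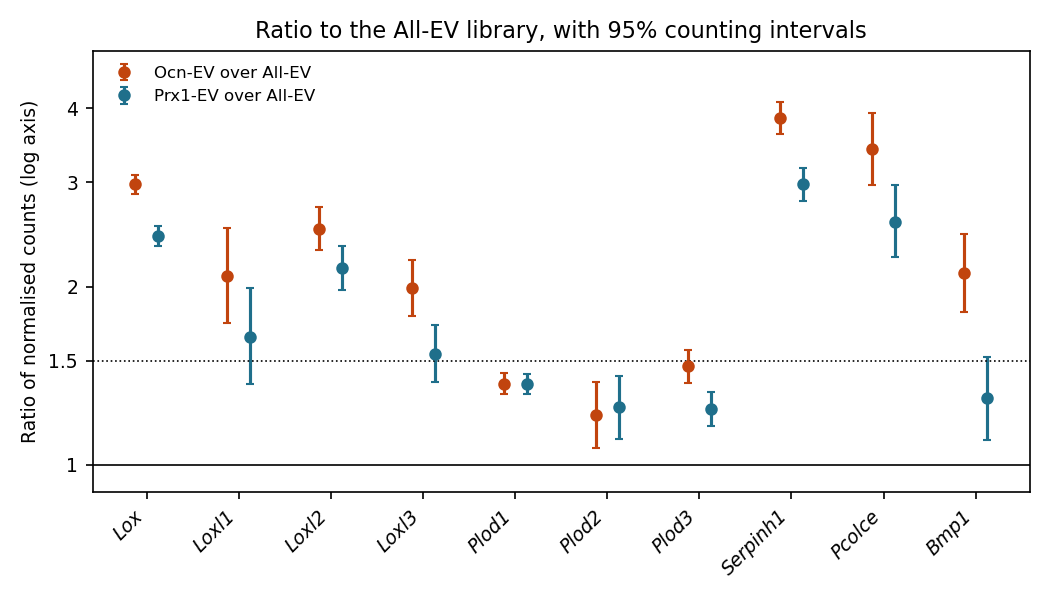
Ratio of the Ocn-EV and the Prx1-EV level to the All-EV level for each member (log axis, 1 library each), with 95% counting intervals, a solid line at 1 and a dotted line at 1.5. Serpinh1 and Pcolce lie highest, and the Plod genes lie between 1.21 and 1.47.

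Ocn-EV and Prx1-EV lay close together. Bmp1 alone passed 1.5-fold between them, at 1.63 (1.43 to 1.85), with 0 members lower, where 2.31% of all genes tested were higher and 1.32% lower in Ocn-EV. Pcolce was at 1.32 (1.21 to 1.45), Serpinh1 at 1.29, as given above, and Loxl3 at 1.29 (1.18 to 1.41). Lox was at 1.22 (1.19 to 1.25), Loxl1 at 1.27 (1.09 to 1.47) and Loxl2 at 1.17 (1.10 to 1.24). Plod3 was at 1.18 (1.12 to 1.25). Plod1, at 1.00 (0.966 to 1.04), and Plod2, at 0.970 (0.866 to 1.09), did not differ beyond counting error. The members' median was 1.24, beside 0.991 for all genes. An exact binomial test of the read numbers, Benjamini-Hochberg adjusted over all genes tested, compares a pair of libraries and not the conditions. It called all 10 members in Ocn-EV against All-EV, all 10 in Prx1-EV against All-EV and 8 in Ocn-EV against Prx1-EV, where it called 64.9%, 64.3% and 26.0% of all genes tested.

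Levels of different genes can be compared only per length, here as normalised counts per kilobase of merged exons. Lox had the highest level per length in each library, with 835, 2484 and 2032. Serpinh1 followed Lox in Ocn-EV (2159) and Prx1-EV (1668), but in All-EV it lay below Plod1, at 561 against 613 per kilobase. Plod1 had 841 in Ocn-EV and 839.7 in Prx1-EV, and Plod3 had 382, 561 and 475. Loxl2 (155, 387 and 332), Loxl3 (120.2, 239 and 185) and Pcolce (77.3, 263 and 199) were in the middle, with Pcolce above Loxl3 in Ocn-EV and Prx1-EV and below it in All-EV. Plod2 (88.4, 107 and 110.5), Loxl1 (58.0, 121 and 95.5) and Bmp1 (31.5, 66.4 and 40.8) were lowest. With the length of the longest transcript in place of merged exons, Plod1 stood above Lox in All-EV, at 1012 against 841 per kilobase, and Lox stayed first in the other libraries. Neighbours in this order are compared without replicates, so their order has no test.

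The collagens that these proteins act on differed more between the libraries than the members did. Of 9 fibrillar collagen genes, 8 reached the expression minimum, and 7 were at least 1.5-fold higher and 0 lower both in Ocn-EV and in Prx1-EV, with median ratios of 5.70 and 3.54. Col1a1 and Col1a2, the chains of type I collagen, were 5.72-fold and 5.54-fold higher in Ocn-EV than in All-EV, and 3.87-fold and 3.62-fold in Prx1-EV. Col3a1 was at 5.69 and 3.46. Col2a1, the chain of cartilage collagen, had levels of 651, 7012 and 5950.4, ratios of 10.8 (9.89 to 11.8) and 9.14 (8.40 to 9.97). Col5a1, which regulates fibril diameter, was at 7.63 and 4.80 and Col11a1 at 6.27 and 2.09. Col5a3 had ratios of 1.21 (0.988 to 1.48) and 0.788 (0.637 to 0.977).

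A ratio to Col1a1 within the same library does not depend on library scaling. Col1a1 had a larger ratio to All-EV than any member in both comparisons. All 10 members were therefore lower relative to Col1a1 in Ocn-EV and in Prx1-EV than in All-EV, which is no separate result. The sizes of the differences are given here. Intervals of these ratios of ratios are normal approximations on the log scale from the read counts. For 1000 reads of Col1a1 there were 507 (487 to 529), 264 (258 to 269) and 319 (313 to 326) reads of Lox. For Plod1 the numbers were 528 (507 to 549), 126 (123 to 130.1) and 187 (182 to 192), so that the ratio in Ocn-EV was 0.240 (0.228 to 0.252) of that in All-EV. Serpinh1 kept closest to Col1a1, with 174 (164 to 185), 117 (114 to 121) and 134 (130.0 to 138), or 0.673 (0.629 to 0.720) and 0.770 (0.719 to 0.824) of the ratio in All-EV. Plod2 was farthest in Ocn-EV, at 0.212 (0.186 to 0.241), and Plod3 in Prx1-EV, at 0.321 (0.300 to 0.344). The median over the members was 0.366 in Ocn-EV and 0.412 in Prx1-EV. Between Ocn-EV and Prx1-EV, 9 of 10 members had less per Col1a1 in Ocn-EV; for Bmp1 the ratio was 1.10 (0.968 to 1.25).

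**Figure D3:**
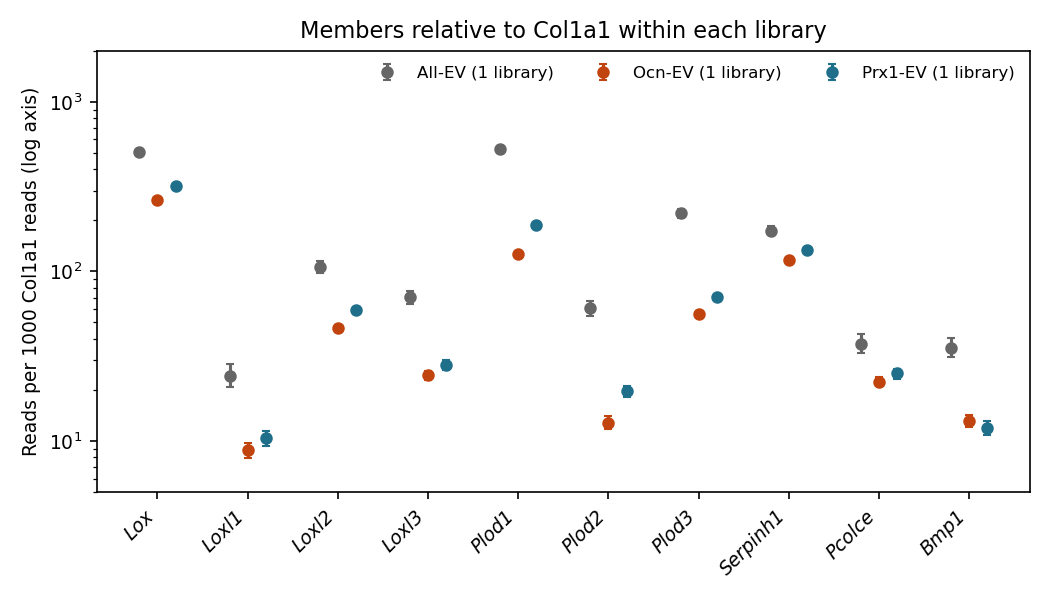
Reads of each member per 1000 reads of Col1a1 in the same library (log axis), 1 point per library with 95% counting intervals. All-EV has the highest point for every member, and the gap is smallest for Serpinh1 and Pcolce. It is largest for Plod2 in Ocn-EV and for Plod3 in Prx1-EV.

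Stromal genes themselves differed between the libraries. Pdgfrb, a receptor of mesenchymal cells, had levels of 129, 539.5 and 379, ratios of 4.18 (3.41 to 5.17) and 2.93 (2.38 to 3.64). Prrx1, a transcription factor of limb mesenchyme whose regulatory region drives Prx1-Cre, had levels of 303, 715 and 522, ratios of 2.36 (2.05 to 2.73) and 1.72 (1.49 to 1.99). Of 7 stromal markers above the minimum 4 were at least 1.5-fold higher and 1 lower in each comparison. Their median ratios were 2.11 and 1.53, close to the members' 2.10 and 1.59. The lower marker was Nt5e, with ratios of 0.524 and 0.550, and Vcam1 was at 0.775 and 0.749. Among macrophage markers 7 of 20 were higher and 5 lower in Ocn-EV, and 5 higher and 8 lower in Prx1-EV. Of all genes tested, 13.8% were higher and 13.7% lower in Ocn-EV, and 12.8% higher and 12.8% lower in Prx1-EV. Cd163 was at 14.5 in Ocn-EV and 5.78 in Prx1-EV, C1qa at 2.23 and 1.38, Csf1r at 1.47 and 1.19, Lyz2 at 0.369 and 0.289 and Marco at 0.00548 and 0.00675. The part of such differences in the members' levels was not tested.

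In Ocn-EV, Pdgfrb had the largest ratio to All-EV of the tested stromal markers, 4.18, and Prrx1 the next, 2.36. The largest ratio of a member there was 3.85, for Serpinh1. It follows that all 10 members were lower relative to Pdgfrb in Ocn-EV than in All-EV, and 8 had an interval below 1. Serpinh1 was at 0.921 (0.745 to 1.14) and Pcolce at 0.815 (0.638 to 1.04) of the All-EV ratio, while Plod2 was at 0.290 (0.228 to 0.368) and Plod1 at 0.328 (0.267 to 0.403). In Prx1-EV 9 of 10 members were lower relative to Pdgfrb, 7 with an interval below 1, and Serpinh1 was at 1.01 (0.817 to 1.26). Lox was at 0.829 (0.672 to 1.02) there and Pcolce at 0.878 (0.685 to 1.12). Relative to Prrx1, 4 members were above and 6 below 1 in each comparison, and 3 intervals lay above and 3 below 1 in Ocn-EV. Serpinh1, at 1.63 (1.40 to 1.91), Pcolce, at 1.44 (1.19 to 1.76), and Lox, at 1.26 (1.09 to 1.46), were higher in Ocn-EV, and Plod1, Plod2 and Plod3 were lower, at 0.582 (0.502 to 0.674), 0.514 (0.425 to 0.621) and 0.622 (0.533 to 0.726). Loxl2, at 1.06 (0.901 to 1.25), Loxl1, at 0.884 (0.702 to 1.11), Loxl3, at 0.844 (0.707 to 1.01), and Bmp1, at 0.893 (0.728 to 1.10), had intervals that held 1. Between Pdgfrb and Prrx1, the side of 1 in Ocn-EV thus depended on the gene chosen for Lox, Loxl2, Serpinh1 and Pcolce. The Plod genes, Loxl1, Loxl3 and Bmp1 were below 1 with either of them. Vcam1 and Nt5e, stromal markers at 0.775 and 0.524 in Ocn-EV, were not used as denominators. The lowest member ratio there was 1.21, so relative to Vcam1 or Nt5e all 10 members would be above 1. In Prx1-EV relative to Prrx1, Serpinh1 was at 1.73 (1.48 to 2.03) and Plod3, the lowest, at 0.723 (0.617 to 0.846).

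The wider collagen biosynthesis list of 39 genes in 4 roles gives the members their context. Of these, 31 reached the expression minimum, and 14 were at least 1.5-fold higher and 1 lower in Ocn-EV as well as in Prx1-EV, with median ratios of 1.36 and 1.40. With libraries set to equal totals, 18 and 16 were higher and 1 lower in each, where 24.8% and 23.1% of all genes were higher. With the deposited scaling, 13.8% and 12.8% of all genes were higher. Higher genes were more frequent in the list than among all genes, but the list was chosen with earlier results of these data known. The list's median was below that of the members in both comparisons.

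Prolyl hydroxylation genes were divided. Of 9 tested, 4 were higher and 0 lower by 1.5-fold in each comparison, with median ratios of 1.27 and 1.10. P3h4 and P3h3, which act with Plod1 on helix lysines, were at 2.92 (2.29 to 3.75) and 1.80 (1.55 to 2.09) in Ocn-EV and at 2.23 and 1.69 in Prx1-EV. P4ha3, a minor alpha subunit of prolyl 4-hydroxylase, was at 2.74 (1.90 to 4.03) and 2.33. The main alpha subunit P4ha1 had levels of 7821, 8096 and 8575, with ratios of 1.04 (1.00 to 1.07) and 1.10 (1.06 to 1.13). Crtap, a helper of prolyl 3-hydroxylation, was at 1.16 (1.06 to 1.27) and 1.06 (0.966 to 1.16). Ppib, the isomerase of the same complex, had ratios of 0.750 (0.702 to 0.802) and 0.780 (0.733 to 0.831). P4hb, the beta subunit and a general disulfide isomerase, had ratios of 0.781 (0.760 to 0.803) and 0.868 (0.846 to 0.890); with equal totals it was at 1.01 in Prx1-EV.

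In the list for glycosylation, folding and export, 4 of 10 tested genes were higher and 0 lower in Ocn-EV, and 3 higher and 0 lower in Prx1-EV, with medians of 1.19 in both. Fkbp10, a collagen prolyl isomerase that assists Plod2, had levels of 355, 1243 and 875, 3.50-fold (3.09 to 3.97) and 2.46-fold (2.17 to 2.80) higher than in All-EV. Plod2 itself differed far less. Sparc, a collagen-binding matrix protein, was at 3.29 (3.14 to 3.44) and 2.44 (2.33 to 2.55), and Fkbp14 at 2.30 (1.68 to 3.18) and 1.69 (1.23 to 2.35). Tmem38b, an ion channel of the endoplasmic reticulum, was at 0.722 (0.652 to 0.799) and 0.848 (0.772 to 0.930).

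Only 3 of the 7 other propeptide enzymes reached the minimum. Adamts2, which removes the N-propeptide, had levels of 179, 369 and 304 and ratios of 2.06 (1.70 to 2.50) and 1.70 (1.40 to 2.06), close to those of Bmp1 in Ocn-EV. Adamts14 was at 1.10 (0.790 to 1.53) and 0.826 (0.588 to 1.16), within counting error. Furin, the convertase that activates Bmp1, was at 0.953 (0.912 to 0.997) and 1.12 (1.07 to 1.17), and with libraries set to equal totals it was at 1.14 in Ocn-EV.

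Of 9 tested genes of crosslinking, copper supply and fibril partners, 5 were higher in Ocn-EV and 6 in Prx1-EV, and 1 was lower in each, with median ratios of 2.25 and 1.83. Fmod (fibromodulin), a small proteoglycan that binds Lox and collagen, had levels of 373, 3089.7 and 1982, 8.27-fold (7.38 to 9.30) and 5.31-fold (4.73 to 5.97) higher than in All-EV. Postn (periostin), which binds Bmp1 and fibronectin, was at 4.30 (3.95 to 4.69) and 2.74 (2.51 to 3.00), and Fn1 (fibronectin) at 2.41 (2.36 to 2.46) and 1.97 (1.93 to 2.01). Efemp2 (fibulin-4), which brings Lox to its substrate, was at 2.25 (2.00 to 2.54) and 1.92 (1.71 to 2.17). The lower gene was Slc31a1, the copper importer of the plasma membrane, with levels of 2972, 1652.5 and 1671 and ratios of 0.556 (0.522 to 0.592) and 0.562 (0.530 to 0.596). Atp7a, the pump that loads copper into secreted enzymes such as Lox, was at 1.45 (1.35 to 1.55) and 1.54 (1.45 to 1.65). The importer and the pump thus lay on opposite sides of All-EV, under equal totals too.

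**Figure D4:**
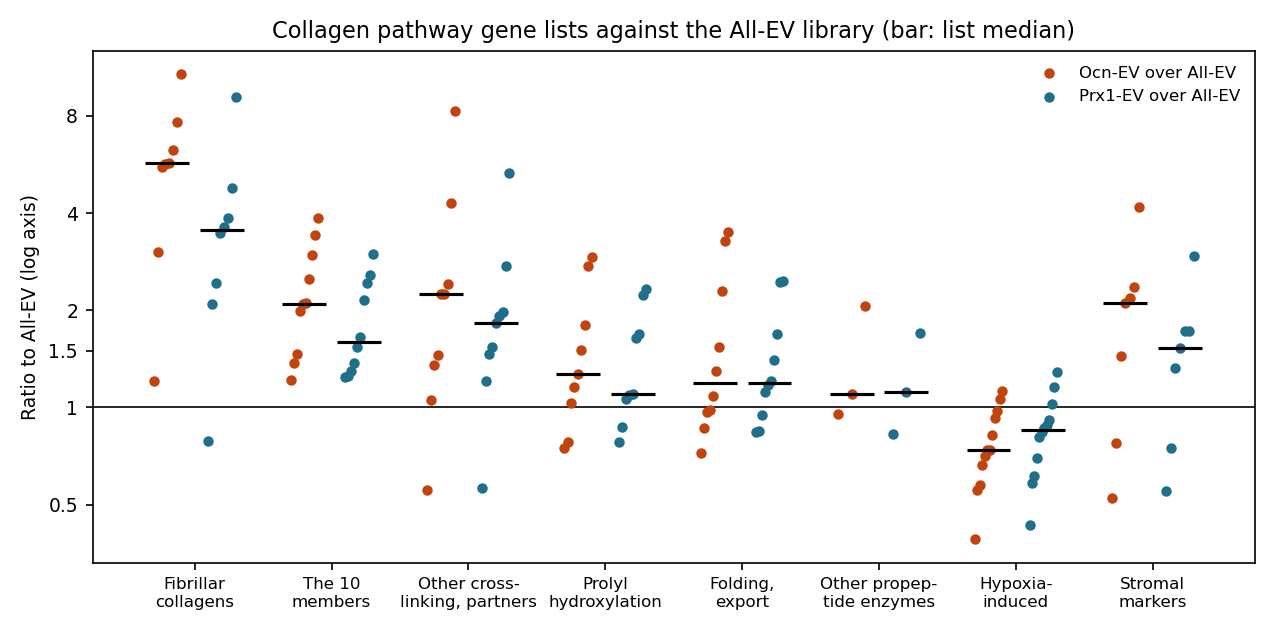
Ratio to All-EV (log axis) of each tested gene of 8 lists, in Ocn-EV and Prx1-EV, with a bar at each list's median and a line at 1. Fibrillar collagens have medians of 5.70 and 3.54, the 10 members 2.10 and 1.59, and the hypoxia-induced genes 0.739 and 0.851.

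Plod1, Plod2, Lox, Loxl2 and P4ha1 are known as genes that low oxygen induces, and all 3 cultures were kept at 3% oxygen. Of 12 other hypoxia-induced genes, 0 were higher and 4 lower by 1.5-fold in Ocn-EV, and 0 higher and 3 lower in Prx1-EV. Of all genes tested, 13.8% were higher and 13.7% lower in Ocn-EV, and 12.8% higher and 12.8% lower in Prx1-EV. The list's median ratios were 0.739 and 0.851. With equal totals the medians were 0.883 and 0.995, with 0 higher and 2 lower in Ocn-EV and 1 higher and 1 lower in Prx1-EV. Of all genes, 24.8% were then higher and 6.70% lower in Ocn-EV, and 23.1% higher and 6.56% lower in Prx1-EV. With 12 genes, such small counts cannot be told from these shares. Slc2a1, a glucose transporter, was at 0.390 (0.381 to 0.399) and 0.433 (0.424 to 0.442), and the peptide hormone gene Adm at 0.556 and 0.611. Car9 was at 1.12 (0.890 to 1.42) and 0.917 (0.726 to 1.16) and Pfkfb3 at 1.06 and 1.29. P4ha1 and Plod2 had ratios to All-EV between 1.04 and 1.25, Plod1 was at 1.37 in both comparisons, and Lox and Loxl2 lay between 2.15 and 2.98.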

How the data were processed

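Messenger RNA of 3 cultures was sequenced, per the labels' protocols as 150-base pairs from 100 ng of RNA. The deposited table gives the authors' normalised signal, 1 value per gene and library. The submitters' processing notes name the aligner HISAT2 (2.2.1), the build mm10, the counter featureCounts (2.0.3), Trimmomatic (0.38.1), FastQC (0.74) and DESeq2 (2.11.40.8), with no settings. Every value (100% at a tolerance of 1e-06) was a whole multiple of 1 read's value (1.13, 1.04 and 0.872), which gave reads by division: 15558165, 14233978 and 17269204 (All-EV, Ocn-EV, Prx1-EV). RefSeq GRCm38.p6 named 25275 identifiers; lengths came from GENCODE vM21.

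Computed here were ratios, exact intervals, counts past 1.5-fold among 11067 genes, and within-library ratios (Python 3.11.15, scipy 1.17.1; edgeR 4.0.16 for TMM factors), tested on simulated data. A library at 0 reads was set to 3. Alternatives were scaling, pseudocount, expression minimum, fold, length and GC trend, length and denominator. Members and lists were chosen with earlier results of these data known. All members, the extreme genes of each list (3 highest and 1 lowest ratios, or 2 and 2 for hypoxia, stromal and macrophage lists) and 13 fixed genes were named; P4hb, Efemp2, Atp7a, Lum, Dcn, Htra2 and Znhit1 were added after their values were seen.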

Additional observations from a re-analysis of the deposited data

How the results depend on the processing

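No paired analysis was possible because each group has 1 library, and for the same reason no library could be left out. TMM scaling, pseudocounts of 1 and 5 and a minimum of 200 kept every count of members and wider-list genes past the threshold within 1.5 times the reported one. With equal totals, median ratios of the members were 2.50 (Ocn-EV) and 1.86 (Prx1-EV) and those of the wider list 1.62 and 1.64. Without the length and GC trend, medians in Ocn-EV were 1.71 for members and 1.19 for the wider list, and 2 wider-list genes were lower in Prx1-EV. With a minimum of 10, 3 wider-list genes were lower in Ocn-EV and 2 in Prx1-EV, and between Ocn-EV and Prx1-EV 4 were higher and 1 lower. With no minimum these counts were 4, 2, 4 and 2. At 2-fold, 6 members were higher in Ocn-EV and 4 in Prx1-EV than in All-EV, and 0 were lower. Of the wider list, 11 genes were higher in Ocn-EV and 6 in Prx1-EV, and 0 were lower in either library. Between Ocn-EV and Prx1-EV, 0 members and 0 wider-list genes were higher in Ocn-EV at 2-fold. Shares of all genes at 2-fold and at these lower minima are not given here, so these counts have no background beside them. The test on reads called 10 members in Prx1-EV and 8 between Ocn-EV and Prx1-EV. With Prrx1 in place of Pdgfrb, the ratios for Lox (0.711 to 1.26), Loxl2 (0.599 to 1.06), Serpinh1 (0.921 to 1.63) and Pcolce (0.815 to 1.44) in Ocn-EV moved above 1. So did Lox (0.829 to 1.42), Loxl2 (0.732 to 1.25) and Pcolce (0.878 to 1.497) in Prx1-EV, where Serpinh1 was above 1 with either (1.01 and 1.73). The causes of these shifts were not tested, except that a lower minimum adds genes and a higher fold removes them. Depth limits Loxl1, Bmp1, Pcolce and Plod2 most, with 169 to 421 reads in All-EV.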

Other observations

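Lysyl oxidases also crosslink elastin, and the elastic fibre genes were measured in the same libraries. Eln, the elastin gene, had 3, 7 and 1 reads (All-EV, Ocn-EV, Prx1-EV), too few to compare. Of 13 elastic fibre genes 9 reached the expression minimum. By 1.5-fold, 5 were higher and 0 lower in Ocn-EV, and 3 higher and 0 lower in Prx1-EV (medians 1.62 and 1.30). Of all genes tested, 13.8% were higher in Ocn-EV and 12.8% in Prx1-EV. Fbln5 (fibulin-5), which guides elastin assembly and binds Loxl1, had levels of 56.6, 292 and 159, with ratios to All-EV of 5.16 (3.81 to 7.12) and 2.81 (2.04 to 3.92). Ltbp1, a binding protein of latent TGF-beta, was at 139, 713 and 684, and its ratios were 5.13 (4.22 to 6.26) and 4.91 (4.06 to 5.99). The microfibril gene Mfap5 was at 4.08 (2.60 to 6.64) and 2.99 (1.89 to 4.89). Ltbp3 was at 0.928 (0.835 to 1.03) and 0.800 (0.721 to 0.889), and with libraries set to equal totals it was at 1.11 in Ocn-EV.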
